A study of Homo sapiens with 4 samples.

Results

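The SLC12 genes encode the cation-chloride cotransporters of the cell surface. Of these, 6 (SLC12A2, SLC12A4, SLC12A5, SLC12A7, SLC12A8 and SLC12A9) were followed among the 60682 genes of the count table. They were chosen by name as a gene family, but with earlier results of these data known. Transcripts were measured by RNA-seq of total RNA in the cell line JJN3, a long-established human line of multiple myeloma, a cancer of plasma cells. A pair of libraries came from cells carrying a short hairpin RNA against the kinase WNK1 (shWNK1), and a pair from cells carrying the hairpin labelled NS, which served as controls. Both groups were transduced, and the same serum-containing medium was used for all 4 libraries. The labels give neither the hairpin sequence, nor the time after transduction, nor whether the cells were a clone, nor whether the replicates were separate cultures. The p-values therefore reflect no more than the spread among these libraries, and that spread may be technical.

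Cation-chloride cotransporters move chloride together with sodium, potassium or both, without using ATP directly, and so help to set cell volume and the chloride concentration inside the cell. SLC12A2 (NKCC1) carries sodium, potassium and chloride into the cell. The potassium-chloride cotransporters SLC12A4 (KCC1), SLC12A5 (KCC2) and SLC12A7 (KCC4) carry potassium and chloride out. WNK kinases activate the kinases OXSR1 and STK39, which phosphorylate these proteins, switching NKCC1 on and the potassium-chloride cotransporters off. SLC12A8 and SLC12A9 are the most divergent genes of the family, and SLC12A8 has been described as a transporter of a precursor of NAD.

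Total counts ran from 16973521 to 20164122 per library. WNK1 was counted at 18.6 and 19.6 CPM (counts scaled to a common, TMM-corrected library size) in shWNK1 cells against 288 and 245 CPM in NS cells, 13.9-fold lower, the direction the labels call for. All 10 plasma cell markers searched were detected, summing to between 2000 and 2226 CPM in every library, and 3 of them rose, 6 fell and 1 was not called. Rises made up 30.0% and falls 60.0%, beside 18.5% and 20.2% of all genes tested. The sum hides larger shifts of single markers. The edgeR log2 fold change was 2.96 for SLAMF7, -1.32 for SDC1 and -0.98 for MZB1. Plasma cell markers were therefore not steady between the groups, and the part of these shifts in the results was not tested. Markers of mature B, T and NK, myeloid, erythroid and stromal cells summed to at most 8.15 CPM per list. The B-cell markers MS4A1 and CD22, the T-cell markers CD3D and CD3G and the myeloid marker LYZ had 0 counts in all 4 libraries. Other genes of these lists did have counts. The T-cell gene TRAC had 17 and 15 in shWNK1 and 18 and 6 in NS libraries. The myeloid marker CSF1R had 3 and 4 in shWNK1 and 10 and 5 in NS libraries. Within the mature B list PAX5 made up most of the sum and fell from a mean of 7.27 to one of 2.99 CPM (edgeR quasi-likelihood test, p adjusted by Benjamini-Hochberg = 8.6e-05), and its part in the results below was not tested. Mitochondrially encoded transcripts took 5.82% and 6.02% of shWNK1 counts and 4.93% and 4.58% of NS counts. The part of this difference in the results was not tested.

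Among the 6 cotransporter genes, SLC12A7 rose in shWNK1 cells, and no other was called as changed. Its promoter is shown first, beside that of SLC12A2, the only importer with counts above the detection floor, whose start lies 594 bases from that of a transcript running the other way. Both windows run from 250 bases before to 50 bases after the RefSeq start (GRCh38.p14), 5′ to 3′ along the gene. Capitals mark matches on either strand to CACGTG (E-box) or GGGCGG (GC box). Overlapping matches were counted separately.
SLC12A7, chr5:1112014-1112313, minus strand: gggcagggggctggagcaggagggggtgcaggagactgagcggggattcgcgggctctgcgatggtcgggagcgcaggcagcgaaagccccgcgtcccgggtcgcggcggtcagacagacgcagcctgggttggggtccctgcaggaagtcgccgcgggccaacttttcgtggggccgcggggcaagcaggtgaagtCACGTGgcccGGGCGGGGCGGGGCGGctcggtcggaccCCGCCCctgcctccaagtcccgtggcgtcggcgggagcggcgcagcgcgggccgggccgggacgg
SLC12A2, chr5:128083516-128083815, plus strand: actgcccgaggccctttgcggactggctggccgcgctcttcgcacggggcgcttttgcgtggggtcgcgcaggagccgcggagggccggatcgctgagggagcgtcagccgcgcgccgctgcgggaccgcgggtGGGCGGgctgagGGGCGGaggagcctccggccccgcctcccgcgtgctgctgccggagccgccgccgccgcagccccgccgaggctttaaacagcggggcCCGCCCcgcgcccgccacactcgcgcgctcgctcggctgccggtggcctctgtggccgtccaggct

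The SLC12A7 window held 1 E-box and 4 GC boxes, of which 3 overlap each other, and 76.3% of its bases were G or C. The SLC12A2 window held 3 GC boxes and no E-box, with 78.7% G or C. Of 35116 promoter windows of this length, 7.26% held CACGTG and 45.0% held GGGCGG. Neither window held TGACGTCA (a cyclic AMP response element, in 1.85% of windows) or CCAAT (34.6%). Among the members whose promoters are not shown, a window of SLC12A9 (chr7:100852463-100852762) held 1 E-box and 1 GC box. The other SLC12A9 window held 0 E-boxes. Windows of SLC12A4 held from 0 to 10 GC boxes. Neither of these genes was called, so such matches were not particular to the gene that rose. They describe the letters only, and no factor was measured at any promoter.

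SLC12A2 (ENSG00000064651.14, chromosome 5, 128083766 to 128189677, plus strand, hg38), the chloride importer, had 824 and 963 counts in shWNK1 and 774 and 661 counts in NS libraries. Its level was 47.2 and 46.9 CPM in shWNK1 and 45.4 and 39.1 CPM in NS cells. Both shWNK1 libraries lay above both NS libraries, but the first NS library lay closer to them than to the second. The log2 fold change was 0.16 (SE 0.095, 95% interval -0.04 to 0.35, edgeR adjusted p = 0.207), and it was called when NS replicate 1 was left out (0.27, edgeR adjusted p = 0.0328). In that fit the lone NS library is assumed to vary like the shWNK1 pair, which was nearly level for this gene. The interval allows a fold change from 0.973 to 1.27.

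The transcript divergent to SLC12A2, SLC12A2-DT (chromosome 5, 127939152 to 128083172, minus strand), stood at 19.0 and 18.6 CPM in shWNK1 and 13.0 and 15.2 CPM in NS libraries. The log2 rise was 0.41 (SE 0.141, edgeR adjusted p = 0.019). That call ended with DESeq2 (adjusted p = 0.113) and without either shWNK1 replicate (0.130 and 0.114) or without NS replicate 1 (0.134). No exon of SLC12A2 shared bases with SLC12A2-DT in the annotation.

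SLC12A7, the potassium-chloride cotransporter KCC4 (ENSG00000113504.21, chromosome 5, 1050384 to 1112063, minus strand), had 5011 and 6297 counts in shWNK1 and 3756 and 3921 counts in NS libraries. It stood at 287 and 306 CPM in shWNK1 and at 220 and 232 CPM in NS cells. Both shWNK1 libraries were higher than both NS libraries, with a gap between the groups wider than the spread within either. The rise was 1.31-fold (95% interval 1.21 to 1.43; log2 fold change 0.39, SE 0.060, edgeR adjusted p = 2.9e-06). It was called in all 11 alternative fits, with log2 fold changes of 0.34 to 0.44. These are bulk libraries, so more RNA in every cell and more cells with a high level cannot be told apart.

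SLC12A7 was 1 rise among 5 tested members, and 0 fell. Over all 14864 genes tested, 18.5% rose and 20.2% fell, 38.8% in either direction, so the members were not called more often than genes at large. The shWNK1 and NS libraries did not overlap for 2 of the 5 tested members, SLC12A2 and SLC12A7, against 68.4% of all genes tested. The median log2 fold change of the 5 was 0.05, beside 0.01 over all genes tested.

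SLC12A4, the widely expressed potassium-chloride cotransporter KCC1 (ENSG00000124067.17, chromosome 16, 67943474 to 67969601, minus strand), was counted 379 and 536 times in shWNK1 and 471 and 436 times in NS libraries. Its levels of 21.7 and 26.1 CPM in shWNK1 overlapped those of 27.6 and 25.8 CPM in NS cells. The shWNK1 pair was the farther apart of both pairs. The log2 fold change was -0.16 (SE 0.121, 95% interval -0.40 to 0.09, edgeR adjusted p = 0.331), and it ran from -0.03 without shWNK1 replicate 1 to -0.30 without shWNK1 replicate 2.

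The 3′ end of SLC12A4 shares 336 exon bases, 4.05% of its exon length, with LCAT, a cholesterol-esterifying enzyme gene on the same strand. LCAT rose from 1.88 and 2.48 CPM in NS to 4.30 and 4.96 CPM in shWNK1 libraries (log2 fold change 1.09, SE 0.304, edgeR adjusted p = 0.0045; 0.0825 without shWNK1 replicate 2). Its counts in shWNK1 libraries were 75 and 102. The counting command held no option to count a read for both genes.

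SLC12A5, the potassium-chloride cotransporter KCC2 known from neurons (ENSG00000124140.14, chromosome 20, 46021690 to 46060150, plus strand), was barely present. It was counted 17 and 2 times in shWNK1 and 12 and 5 times in NS libraries, or 0.975 and 0.0973 CPM against 0.704 and 0.295 CPM. Both NS libraries lay between the shWNK1 libraries. The log2 fold change of 0.05 had an SE of 0.837 and a 95% interval from -1.66 to 1.76 (edgeR adjusted p = 0.974). Its sign changed when single libraries were left out, from -2.28 without shWNK1 replicate 1 to 0.95 without shWNK1 replicate 2, so no change could be read at this depth. Its exons share 197 bases (2.21%) with SLC12A5-AS1 on the opposite strand, which had at most 2 counts in any library.

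SLC12A9, a member of uncertain transport activity (ENSG00000146828.18, chromosome 7, 100826820 to 100867010, plus strand), was counted 487 and 554 times in shWNK1 and 473 and 550 times in NS libraries. Its levels were 27.9 and 27.0 CPM in shWNK1 and 27.7 and 32.5 CPM in NS cells. Only NS replicate 2 lay apart, above the other libraries. The log2 fold change was -0.14 (SE 0.114, 95% interval -0.37 to 0.10, edgeR adjusted p = 0.376). It ran from -0.25 without NS replicate 1 to -0.01 without NS replicate 2, with neither called.

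SLC12A9 shares 69 exon bases (0.775%) with EPHB4, an ephrin receptor gene on the opposite strand. EPHB4 fell from 15.9 and 16.9 CPM in NS to 8.26 and 9.68 CPM in shWNK1 libraries (log2 fold change -0.87, SE 0.158, edgeR adjusted p = 3.9e-05). Strand was not used in counting.

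SLC12A8 (ENSG00000221955.10, chromosome 3, 125082636 to 125212864, minus strand) was counted 3 and 8 times in shWNK1 and 3 and 7 times in NS libraries. This is 0.172 and 0.389 CPM against 0.176 and 0.414 CPM, and the libraries of the groups interleaved. It was the only 1 of the 6 members removed by the low-count filter. With no filter its log2 fold change was -0.06 (SE 1.19), which shows no direction at this depth.

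**Figure D1:**
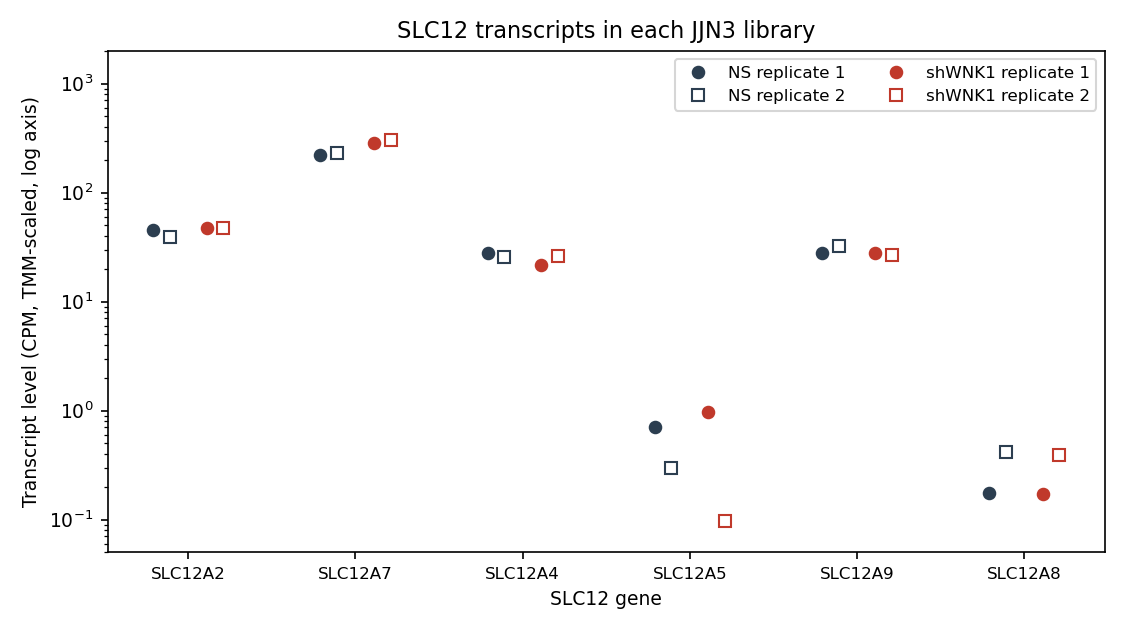
Transcript levels in CPM (log axis) of the 6 SLC12 genes followed, with 1 point per library: NS in dark blue, shWNK1 in red, replicate 1 as filled circles and replicate 2 as open squares. SLC12A7 is the most abundant at 220 to 306 CPM, SLC12A5 and SLC12A8 lie below 1 CPM, and the groups are clearly apart for SLC12A7.

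Of the rest of the family, SLC12A1 (NKCC2) and SLC12A3 (NCC), the salt-reabsorbing cotransporters of the kidney, had 0 counts in all libraries and 1 count in shWNK1 replicate 1, respectively. A count of 0 allows up to 0.146 to 0.177 CPM (3 counts) at these depths, counting error only.

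Of the potassium-chloride cotransporter genes followed, SLC12A7 rose, and SLC12A4 and SLC12A5 were not called. The intervals of SLC12A4 and SLC12A7 did not meet: that of SLC12A4 ended at 0.09 and that of SLC12A7 began at 0.27 on the log2 scale. The difference between these fold changes was not itself tested.

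**Figure D2:**
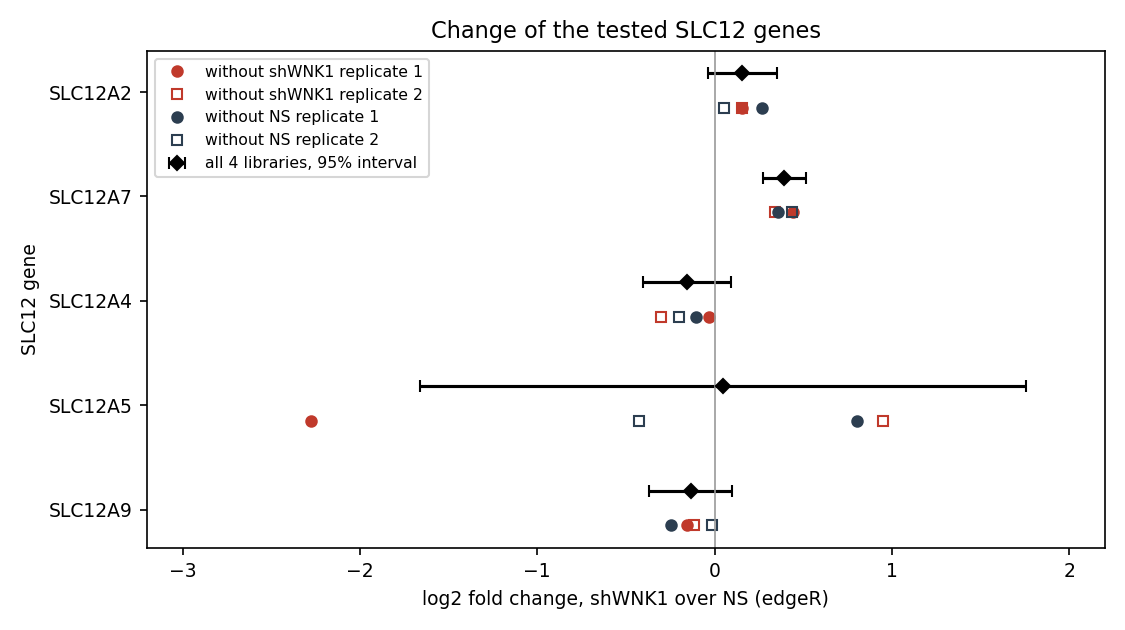
Log2 fold change (shWNK1 over NS, edgeR) of each tested member, as black diamonds with 95% intervals from all 4 libraries and, beneath, as coloured points with 1 library left out. SLC12A7 (0.39) keeps to the right of 0 throughout, SLC12A5 spans both sides, from -2.28 to 0.95, and SLC12A2 stays right of 0 with an interval that includes it.

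Levels of different genes were compared per kilobase (kb) of annotated exon. SLC12A7 led by far, at 36.7 and 38.6 CPM per kb in NS and 47.9 and 51.0 CPM per kb in shWNK1 libraries. In NS cells its level per kb was above that of 90.0% of the 11941 protein-coding genes tested. SLC12A2 followed at 4.26 and 3.67 CPM per kb in NS cells, then SLC12A9 at 3.12 and 3.65, and SLC12A4 at 3.33 and 3.11.

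SLC12A9 and SLC12A4 overlapped in NS cells, and the lowest SLC12A2 library stood barely above the highest SLC12A9 library. With the longest annotated transcript as the length, SLC12A9 came before SLC12A2 (means of 6.75 and 6.13 CPM per kb in NS cells), so the order of these genes depends on the length used. SLC12A5 and SLC12A8 were at 0.0109 to 0.109 CPM per kb in every library.

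SLC12A7 made up 77.2% and 78.6% of the summed level per kb of the 6 members, SLC12A1 and SLC12A3 in NS libraries and 82.2% and 82.7% in shWNK1 libraries. The share of SLC12A9 was 6.56% and 7.43% in NS and 5.39% and 4.91% in shWNK1 libraries. That of SLC12A4 was 7.01% and 6.32% in NS and 4.50% and 5.10% in shWNK1 libraries. For SLC12A2 the groups overlapped, at 8.97% and 7.46% in NS and 7.62% and 7.13% in shWNK1 libraries. Shares add up to a whole, so a larger share of SLC12A7 lowers the others. Neither SLC12A9 nor SLC12A4 was itself called as changed. Summed over SLC12A4, SLC12A5 and SLC12A7, the level was 40.1 and 41.7 CPM per kb in NS and 50.6 and 54.2 in shWNK1 libraries. The groups did not overlap, as for 68.4% of all genes tested. SLC12A7 alone gave 36.7 and 38.6 in NS and 47.9 and 51.0 in shWNK1 libraries, so this sum mostly restates its rise.

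SLC12A2 over that sum, the importer against these exporters, was 0.106 and 0.0879 in NS and 0.0877 and 0.0812 in shWNK1 libraries. Both shWNK1 ratios were the lower, but shWNK1 replicate 1 and NS replicate 2 were nearly level. SLC12A7 makes up most of the divisor. With 2 libraries against 2 an exact two-sided permutation test cannot go below p = 0.333, and the ratio was not tested. It describes transcripts, and transport was not measured.

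**Figure D3:**
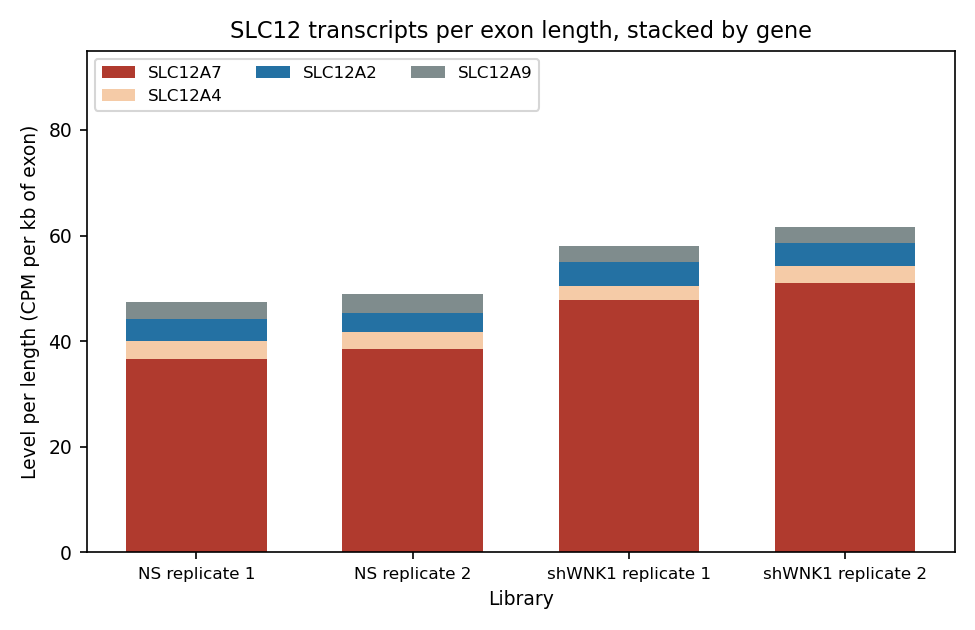
Level per exon length (CPM per kb) in each library, stacked for the 4 members with more than 1 CPM per kb. SLC12A7 fills most of every bar, and both shWNK1 bars are taller than both NS bars.

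The hairpin's target acts on these cotransporters through other kinases, so their regulators were read beside them. Of 15 tested regulators 3 rose, 4 fell (WNK1 among them) and 8 were not called, with a median log2 fold change of 0.02. That is 20.0% and 26.7%, near the 18.5% and 20.2% of all genes tested. The 26.7% includes WNK1, the hairpin's target, whose fall the labels call for. SGK1, a kinase that controls sodium transport, rose from 6.27 and 6.26 CPM in NS to 21.3 and 23.4 CPM in shWNK1 libraries (log2 fold change 1.83, edgeR adjusted p = 3.0e-11). KLHL2, an adaptor that brings WNK kinases to a ubiquitin ligase, rose by 0.49 (edgeR adjusted p = 2.6e-04). OXSR1, which phosphorylates the cotransporters, rose by 0.23 (edgeR adjusted p = 0.0080), a call lost when shWNK1 replicate 2 was left out (0.248).

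CAB39, the scaffold protein that activates OXSR1 and STK39, fell from 95.2 and 95.6 CPM to 75.6 and 69.3 CPM (log2 fold change -0.40, edgeR adjusted p = 8.1e-05). PPP1CC, a catalytic subunit of protein phosphatase 1, which removes such phosphates, fell from 491 and 458 CPM to 343 and 334 CPM (log2 fold change -0.49, edgeR adjusted p = 3.6e-08). STK39, the partner kinase of OXSR1, fell from 85.7 and 77.1 CPM to 72.5 and 67.5 CPM (log2 fold change -0.22, edgeR adjusted p = 0.030). That call was lost with upper-quartile factors (0.0766), with DESeq2 (0.100), and without replicate 1 of shWNK1 (0.0951) or of NS (0.191) or replicate 2 of shWNK1 (0.307). The subunits PPP1CA and PPP1CB were not called, with log2 fold changes of -0.03 and 0.01. Without NS replicate 1, 6 regulators rose.

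The sodium pump, which builds the sodium and potassium gradients that drive the cotransporters, was read next. Both genes tested on this list fell, beside 20.2% of all genes tested, and 10 others were too low to test. The subunit ATP1B3 went from 286 and 280 to 194 and 200 CPM (edgeR log2 fold change -0.52, SE 0.059, adjusted p = 1.4e-08). The pump modulator FXYD5 had a log2 fold change of -0.28 (edgeR adjusted p = 0.0058). Leaving out shWNK1 replicate 2 (0.156) or NS replicate 2 (0.0758) ended that call.

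Potassium channels are another route by which potassium leaves a cell. Of 10 tested, 6 rose, 0 fell and 4 were not called, with a median log2 fold change of 0.75. Over all genes tested 18.5% rose and 20.2% fell, with a median of 0.01, and the list itself was not tested. The list was chosen with earlier results of these data known, so its counts cannot speak for potassium channels as a whole. The calcium-activated channel KCNN3 rose from 266 and 250 CPM in NS to 475 and 464 CPM in shWNK1 libraries (log2 fold change 0.86, SE 0.059, edgeR adjusted p = 1.5e-13). The lymphocyte channel KCNA3 rose from 107 and 102 to 161 and 163 CPM (0.63, edgeR adjusted p = 2.5e-09), and the leak channel KCNK1 rose from 41.2 and 39.1 to 70.3 and 76.6 CPM (0.87, edgeR adjusted p = 1.0e-09). KCNK13 (1.10), KCNN4 (1.02) and KCNJ2 (0.95) completed the rises, and these are named as the rest of the count. Each of the 6 was called in all 11 alternative fits.

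Chloride channels went both ways, with 5 rises, 3 falls and 8 not called among 16 tested (median log2 fold change 0.04). As shares, 31.2% rose and 18.8% fell, beside 18.5% and 20.2% of all genes tested. The volume-regulated channel subunit LRRC8A fell from 40.2 and 34.1 to 21.9 and 26.1 CPM (log2 fold change -0.63, edgeR adjusted p = 5.8e-05), while the subunit LRRC8B rose from a mean of 29.5 to one of 43.3 CPM (0.55, edgeR adjusted p = 4.5e-05). The plasma membrane channel CLCN2 fell by 0.95, and CLNS1A, which was counted in this list, fell by 0.46. The lysosomal and endosomal chloride-proton exchangers CLCN7 (0.49), CLCN5 (0.66) and CLCN6 (0.41) rose, as did the subunit LRRC8C (0.31; edgeR adjusted p = 0.0015, and 0.129 without shWNK1 replicate 1).

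Bicarbonate, proton and anion exchangers were split too, with 2 rises, 5 falls and 5 not called among 12 tested (median log2 fold change -0.01). Rises made up 16.7% and falls 41.7%, beside 18.5% and 20.2% of all genes tested. The sodium-bicarbonate cotransporter SLC4A7 (0.44) and the anion transporter SLC26A11 (0.82) rose. The sulfate transporter SLC26A2 (-0.74), the sodium-bicarbonate cotransporter SLC4A4 (-0.58) and the exchanger SLC9A7 (-0.59) fell. The anion exchanger SLC4A2 (-0.27) and SLC4A11 (-0.44) were the remaining falls. The call on SLC4A2 was lost only without shWNK1 replicate 2. That on SLC4A11 was lost with DESeq2 (adjusted p = 0.113) and with the replicate block (edgeR adjusted p = 0.0612). It was also lost without shWNK1 replicate 1 and without NS replicate 1.

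Genes of NAD salvage and use, read because of the role described for SLC12A8, held 1 rise and 4 falls among 13 tested (median log2 fold change -0.16). These are 7.69% and 30.8%, beside 18.5% and 20.2% of all genes tested. NMNAT1, which makes NAD in the nucleus, rose by 0.66, and the NAD-consuming enzymes PARP1 (-0.56), SIRT1 (-0.61) and CD38 (-0.60) fell. NAMPT, which makes the precursor nicotinamide mononucleotide, had a log2 fold change of -0.19 (edgeR adjusted p = 0.014), a call lost with upper-quartile factors (0.0509) and without either shWNK1 replicate (0.0710 and 0.280). The call on CD38 ended with DESeq2 (adjusted p = 0.0665) and without either shWNK1 replicate (0.0829 and 0.054). Without either shWNK1 replicate there were 2 falls in this list.

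**Figure D4:**
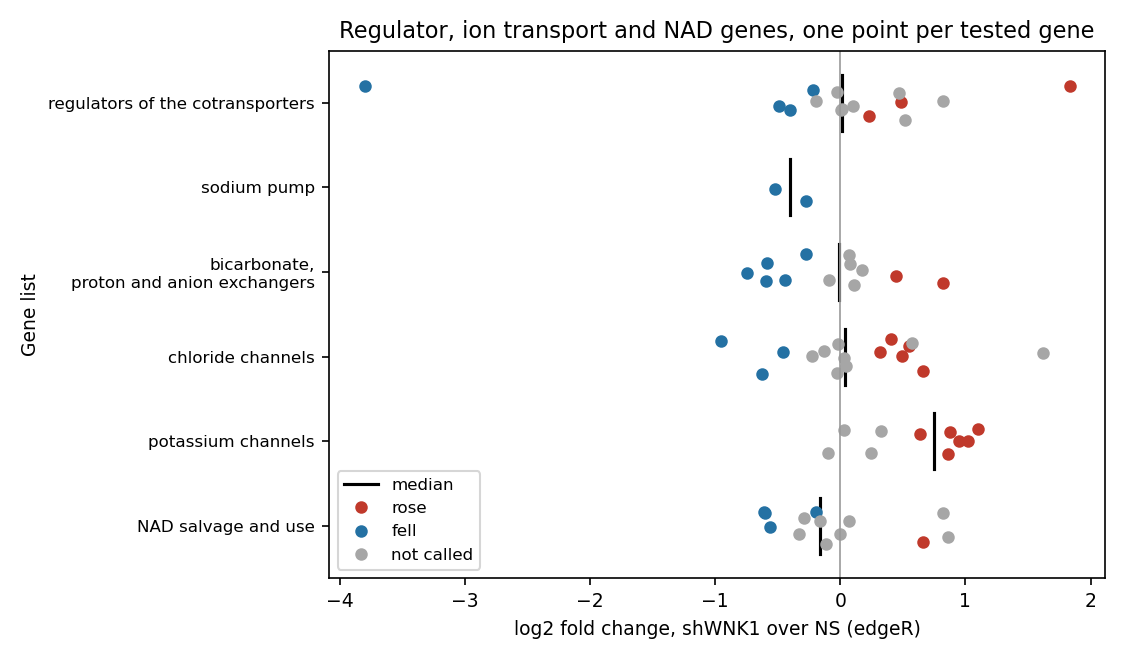
Log2 fold change (shWNK1 over NS, edgeR) of each tested gene in 6 lists (regulators, 4 kinds of ion transport genes, and genes of NAD salvage and use), red where it rose, blue where it fell and grey where it was not called, with a black bar at the list's median (points are spread vertically only to separate them). Both sodium pump genes lie left of 0, 6 potassium channels are red to the right of 0, and WNK1 is the point at -3.80.

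The genes whose pattern over the 4 libraries was most like that of a member were found by the distance between log2 CPM profiles centred on their means, among 10044 genes with at least 5 CPM. For SLC12A7 these were GTF3C2-AS2 (distance 0.012), MAVS (0.016) and GOLPH3-DT (0.018), each higher in both shWNK1 libraries. For SLC12A2 they were ABHD17A (0.024), WRN (0.025) and SLC9A9 (0.025). For SLC12A4 they were INIP (0.011), RHOBTB2 (0.020) and SETD3 (0.043), and for SLC12A9 they included THOC7 (0.021) and TRG-AS1 (0.028). The nearest gene to SLC12A5 was much farther off (PTPDC1, 0.369). The profiles rest on 4 libraries, and these distances are a description.

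The 6-base word AGTATC, picked out earlier from these same data because it is frequent in 3′ UTRs of genes that fell, was looked for in the 3′ UTR of the GENCODE v29 transcript with the longest coding sequence. It was in 29.8% of 2795 falling genes searched, 15.0% of 2446 rising genes and 17.6% of 6496 genes not called. A high share among falling genes was the reason for picking the word, so the share is no separate finding. Its cause was not tested. None of the 6 members held it there. As only 19.9% of all 11737 genes searched held it, its absence from 6 genes shows little. For SLC12A5 the stretch searched was only 97 bases long. In the longest annotated 3′ UTR of each gene, the word was present 1 time in SLC12A5, and in none of the other 5 members.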

How the data were processed

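The deposited table holds raw counts of fragments per gene in 4 libraries, which the authors obtained by running featureCounts v2.0.0 with GENCODE v34, per the file headers. Strand was ignored, a mapping quality under 20 was refused, and pairs had to map at both ends without being chimeric. The submitters' processing notes name Trimmomatic, STAR and hg38, and versions are not given in the sources used here. Because strand was ignored, overlapping genes on opposite strands cannot be fully told apart, and near-identical sequence is lost to the quality minimum. Left out were 45 Y-chromosome duplicates of pseudoautosomal genes, all at 0, and a gene broken over 3 lines. Identifiers without version were matched to symbols (60369 of 60682), and all 6 members matched. Gene types, transcript lengths and 3′ UTRs came from GENCODE v29, which has the same genome build, and promoters from RefSeq.

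The test was edgeR 4.0.16 under R 4.3.3 (filterByExpr, TMM factors, robust quasi-likelihood F test, two-sided, group as the only term, 2 residual degrees of freedom), adjusted over 14864 genes by Benjamini-Hochberg, and called under 0.05. SEs come from the F statistic, and 95% intervals from its t quantile. CPM use TMM-scaled library sizes, and profiles use log2(CPM + 0.5). The script was tested on simulated data. Alternatives were RLE and upper-quartile factors, DESeq2 1.42.0, limma-voom (limma 3.58.1), no low-count filter, a minimum of 1 CPM in 2 libraries, a block for replicate number, each library left out (the lone library of a group is then assumed to vary like the other group) and, for levels, the longest transcript.

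The members and lists were chosen with earlier results of these data known. Named genes were the members, SLC12A1, SLC12A3, WNK1, up to 3 called genes by smallest p in each direction of 7 lists, the 3 nearest profiles per member, and genes sharing exons with a member. Some genes that this rule names are not reported here, and they were left out of the lists, shares and sums, so the ratio of importer to exporters is over SLC12A4, SLC12A5 and SLC12A7. SLC12A2-DT, PPP1CA, PPP1CB, PAX5, SLAMF7, SDC1, MZB1, KCNK13, KCNN4, KCNJ2, STK39, NAMPT, SLC4A2, SLC4A11, CLCN6 and LRRC8C were named after their values were seen.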

Additional observations from a re-analysis of the deposited data

How the results depend on the processing

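The rise of SLC12A7 was called in all 11 alternative fits, and SLC12A4 and SLC12A9 kept a negative sign in all 11 without being called. SLC12A2 was called in 1, without NS replicate 1 (log2 fold change 0.27), and ran from 0.056 to 0.27 with 1 library left out. SLC12A5 changed sign with limma-voom (-0.57) and with the replicate block (-0.14), and ran from -2.28 to 0.95 with 1 library left out, on 2 to 17 counts per library. The 1 CPM filter removed SLC12A5, DESeq2 gave it no adjusted p, and SLC12A8 has a value only with no filter. The cause of these shifts was not tested. The replicate number was not shown to pair the libraries (correlation of deviations -0.0047 over 14864 genes). With the replicate block 2539 genes rose and 2804 fell, and no call on a member changed. Over all genes there were 2755 rises and 3005 falls, 1795 rises with DESeq2, and, with 1 library left out, 1632 to 2778 rises and 1964 to 3024 falls, the fewest without a shWNK1 library. The longest transcript as length gave a ratio of SLC12A2 to the potassium-chloride cotransporters of 0.127 in NS and 0.112 in shWNK1 cells, against 0.0971 and 0.0844. Depth limits SLC12A5 and SLC12A8.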
